A study of Mus musculus with 6 samples.

Results

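The 10 genes described here are the NF-kB feedback genes *Nfkbia*, *Nfkbiz*, *Nfkbid*, *Tnfaip3*, *Socs3*, *Zfp36*, *Ier3* and *Gadd45b* and the inflammatory cytokines *Tnf* and *Il1b*. They were taken as a list by gene symbol, and all 10 of 10 were found among the 27514 gene identifiers that the annotations of both preparations share. Levels were measured by droplet-based single-cell RNA sequencing (scRNA-seq) of unsorted brain cells from wild-type female C57Bl/6J mice, with no treatment. Cerebral cortices of 3-week-old mice gave the cortical preparation, and hippocampi of 5-week-old mice gave the hippocampal one. For each, the cells of 3 mice were pooled into 1 suspension after a short enzymatic digestion and a Percoll step against myelin, and that suspension was sequenced as 3 technical replicates. There were thus 6 libraries but 1 biological sample per region, no difference was tested, and no p-value is given. Region, age, preparation and gene annotation changed together and cannot be told apart.

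The libraries held 39662203 to 50024850 unique molecular identifiers (UMIs, 1 per captured RNA molecule) in 4894 to 6121 barcodes each. After filtering, 4351 to 4830 cells per library were clustered within each preparation with the 10 genes and their pathway left out of the genes used for clustering. Classes were named "-like" from marker lists, and these held 6158 cortical and 5893 hippocampal microglia-like cells, 108 and 224 border macrophage-like cells, 2423 and 2136 endothelial-like cells, 373 and 540 mural-like cells, 2700 and 1970 astrocyte-like cells, and 75 and 1106 oligodendrocyte-like cells. All 10 microglia markers were found in the microglia-like cells of both preparations. The cortical mural-like cells formed 1 cluster led by the smooth muscle genes *Acta2* and *Tagln*, whereas 83.5% of the hippocampal mural-like cells were in a cluster led by *Vtn* and *Kcnj8*, which mark pericytes. Between 4.92% and 5.70% of the kept cells of each hippocampal library, and 0.411% to 0.632% of those of each cortical one, had a barcode shared with another library of the same preparation. Levels are given in CPM, the share of a gene among all UMIs of the same cells at the usual scale for sequencing counts. They compare the same gene between classes or preparations and do not rank different genes against each other.

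NF-kB is a family of transcription factors held in the cytoplasm by inhibitor (IkB) proteins until signals such as TNF, IL-1 or microbial products activate a kinase complex that marks the inhibitors for degradation. The freed factors switch on cytokine genes and, in the same wave, genes whose products end the response: new IkB proteins, the ubiquitin-editing enzyme A20, and proteins that block cytokine signalling or destabilise cytokine mRNA. Microglia, the resident macrophages of the brain, are a main source of TNF and IL-1 beta in brain inflammation.

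Promoter windows are printed for the members in which a kB site, the DNA element that NF-kB binds, was found by its consensus decamer on either strand. The windows run from 250 bases before to 50 bases after each annotated start in RefSeq (GRCm38.p6) and are written 5′ to 3′ on the strand of the gene, with the matches in capitals. Of 32817 such windows 8.46% held a match. *Nfkbia* (chr12:55492598-55492897, minus strand) held 1, the second start site of *Nfkbid* (chr7:30422156-30422455, plus strand) held 2, the first start site of *Tnfaip3* (chr10:19015361-19015660, minus strand) held 2 and *Ier3* (chr17:35821463-35821762, plus strand) held 1.
Nfkbia: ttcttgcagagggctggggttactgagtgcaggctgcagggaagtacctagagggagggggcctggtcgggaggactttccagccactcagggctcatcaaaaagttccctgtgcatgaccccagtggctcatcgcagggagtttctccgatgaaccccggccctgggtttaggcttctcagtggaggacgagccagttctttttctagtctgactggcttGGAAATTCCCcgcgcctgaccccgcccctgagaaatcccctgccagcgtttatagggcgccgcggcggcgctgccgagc
Nfkbid: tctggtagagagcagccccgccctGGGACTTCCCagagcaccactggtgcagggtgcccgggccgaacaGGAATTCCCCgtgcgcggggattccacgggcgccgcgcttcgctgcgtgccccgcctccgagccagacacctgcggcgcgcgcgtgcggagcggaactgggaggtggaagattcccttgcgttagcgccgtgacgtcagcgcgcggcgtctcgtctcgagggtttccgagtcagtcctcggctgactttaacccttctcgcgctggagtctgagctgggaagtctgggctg
Tnfaip3: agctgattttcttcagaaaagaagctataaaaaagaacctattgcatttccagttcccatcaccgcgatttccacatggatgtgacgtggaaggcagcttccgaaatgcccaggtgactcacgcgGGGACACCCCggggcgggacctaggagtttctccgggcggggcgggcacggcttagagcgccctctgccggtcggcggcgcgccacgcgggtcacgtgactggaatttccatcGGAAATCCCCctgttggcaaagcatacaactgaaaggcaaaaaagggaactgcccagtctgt
Ier3: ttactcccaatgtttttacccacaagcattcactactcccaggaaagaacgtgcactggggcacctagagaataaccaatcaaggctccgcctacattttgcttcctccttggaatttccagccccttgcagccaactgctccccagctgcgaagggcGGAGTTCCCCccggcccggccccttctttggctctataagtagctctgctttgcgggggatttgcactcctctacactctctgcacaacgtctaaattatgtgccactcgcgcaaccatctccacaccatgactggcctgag
The windows of *Socs3*, *Zfp36*, *Gadd45b*, *Tnf* and *Il1b* and the other start sites of *Nfkbid* and *Tnfaip3* held none, and *Nfkbiz* was not searched. A window without a match says only that these letters are not in its 300 bases. A match in a window is a description of its letters and not a measured binding site.

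*Zfp36* encodes tristetraprolin, which binds AU-rich elements in the 3′ untranslated regions of mRNAs, those of *Tnf* among them, and speeds their decay. The nonamer ATTTATTTA, a core of such elements, was therefore searched in the longest annotated 3′ region of each gene on GRCm38. It was found 2 times in *Tnf*, 1 time in *Il1b* and 0 times in the other 8 members, against 6.18% of 21173 genes with at least 1. Other forms of AU-rich element were not searched, so a count of 0 says only that this nonamer is absent from the region. The sites in the cytokines are printed with the nonamers in capitals.
Tnf: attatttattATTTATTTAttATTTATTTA
Il1b: ctgatgggcaaccacttacctATTTATTTA
The 10 genes lie at separate places on GRCm38, *Tnf* at chr17:35199381-35202007 and *Ier3* at chr17:35821684-35822923 being the nearest pair, and exons of *Zfp36* and *Il1b* overlap an annotated gene on the opposite strand, *Gm44710* and *Il1bos*.

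The first comparison asked in which cell classes the members were found. Among the 6 classes listed above, most members were at their highest in microglia-like or border macrophage-like cells in both preparations. *Nfkbia* was highest in endothelial-like and *Gadd45b* in mural-like cells. The smaller monocyte-like and fibroblast-like classes, described at the end, are not among these 6 and were higher for some members. The plot of CPM by class gives all 10 genes in each library.

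**Figure D1:**
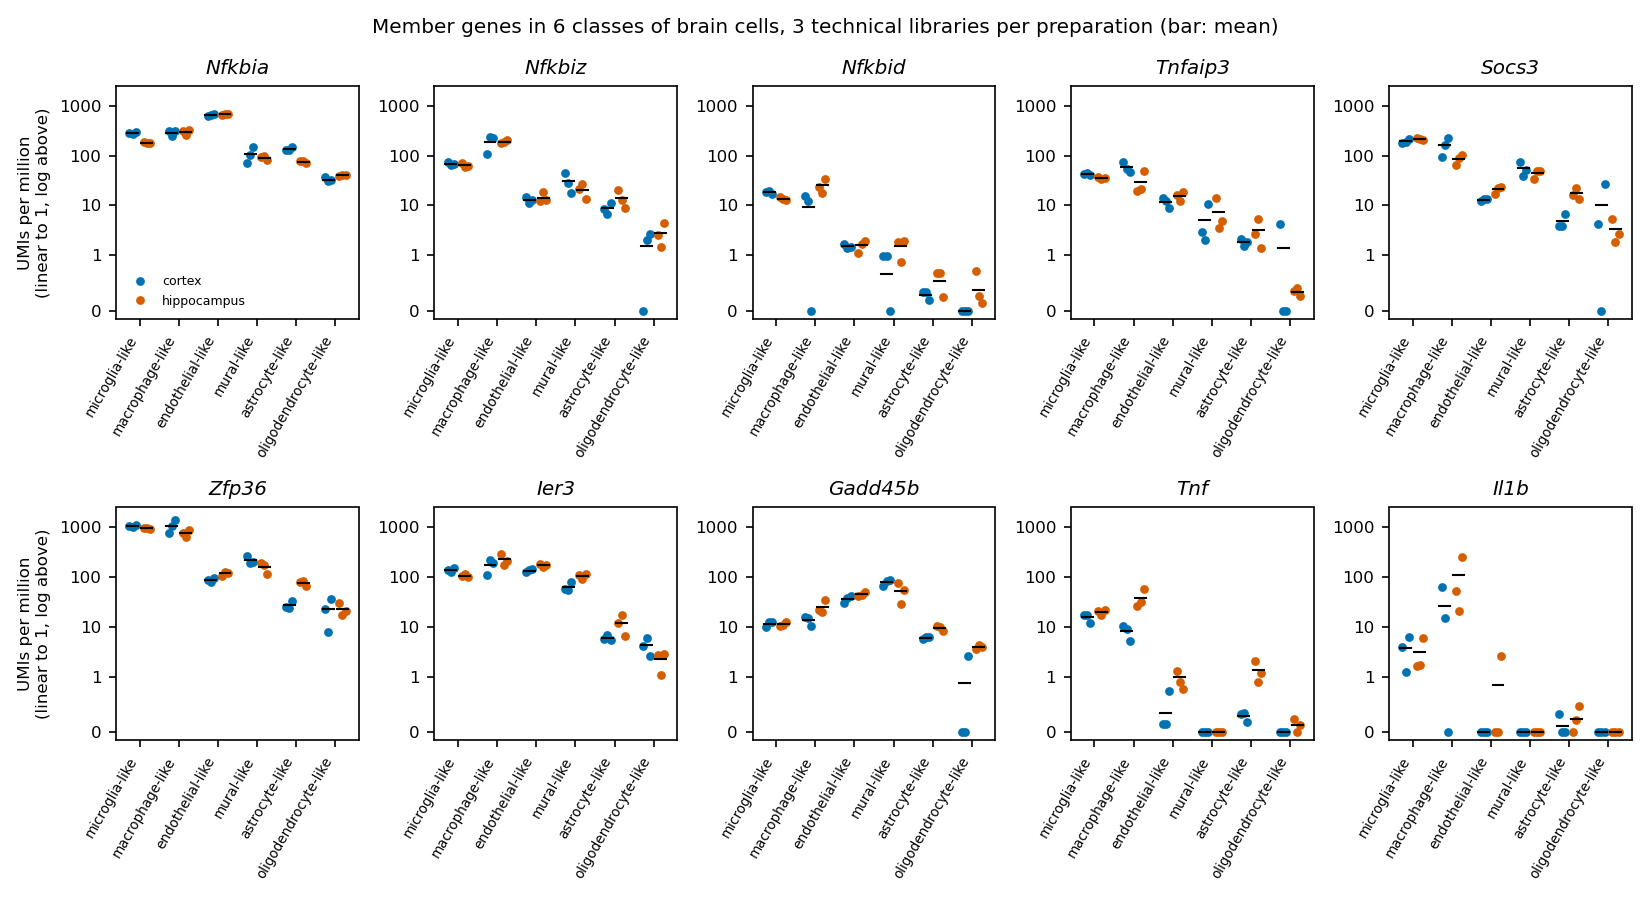
Level of each of the 10 genes (vertical axis, CPM, linear up to 1 and log above) in 6 cell classes (horizontal axis) in cortex and hippocampus. Each point is 1 technical library and each bar the mean of the 3. *Nfkbia* was highest in endothelial-like cells at 644 and 673 CPM, and *Tnf* and *Il1b* had 0 UMIs in mural-like cells.

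Among the IkB proteins, *Nfkbia* encodes IkB-alpha, the classical inhibitor that NF-kB itself induces. In microglia-like cells *Nfkbia* was at 285, 277 and 300 CPM in the 3 cortical libraries and at 185, 178 and 175 CPM in the hippocampal ones. In endothelial-like cells it was at 611, 648 and 675 CPM in cortex and at 643, 685 and 693 CPM in hippocampus. Every endothelial value was above every microglial value, by 2.24-fold in cortex and 3.76-fold in hippocampus. At least 1 *Nfkbia* UMI was found in 96.1% of cortical and 90.9% of hippocampal endothelial-like cells, at median depths of 6902 and 6581 UMIs. With all cells thinned to 1000 UMIs, the shares were 48.1% of endothelial-like against 18.5% of microglia-like cells in cortex and 46.3% against 14.3% in hippocampus.

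*Nfkbiz* and *Nfkbid* encode the nuclear IkB proteins IkB-zeta and IkBNS, which act on NF-kB at its targets. In border macrophage-like cells *Nfkbiz* was at 105, 235 and 230 CPM in cortex and at 181, 185 and 208 CPM in hippocampus. In microglia-like cells it was at 73.4, 65.9 and 67.0 CPM and at 72.2, 60.1 and 63.2 CPM. The macrophage values were all above the microglial ones, by 2.90-fold in cortex and 2.92-fold in hippocampus from the summed UMIs. *Nfkbid* was scarce, at 16.8 to 19.8 CPM in cortical and 13 to 14.5 CPM in hippocampal microglia-like cells, and at 1.39 to 1.66 CPM and 1.13 to 1.96 CPM in endothelial-like cells.

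*Tnfaip3* encodes A20, which ends signalling upstream of the kinase complex. It was at 41.8, 44.5 and 39.9 CPM in cortical and 36.6, 34.7 and 34.7 CPM in hippocampal microglia-like cells, above all endothelial-like libraries (8.98 to 18.5 CPM) by 3.59-fold and 2.26-fold. *Socs3* encodes an inhibitor of JAK-STAT signalling downstream of the IL-6 family. *Socs3* was at 176, 190 and 211 CPM in cortical and 224, 217 and 209 CPM in hippocampal microglia-like cells, against 12.2, 13.2 and 13.7 CPM and 16.7, 22.3 and 23.8 CPM in endothelial-like cells. The microglial level was thus 14.8-fold and 10.4-fold higher, and in hippocampus it was also 2.55-fold above that of border macrophage-like cells.

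*Zfp36* was found in 86.1% of cortical microglia-like cells. It was at 1084, 1030 and 1116 CPM in cortical and 968, 951 and 938 CPM in hippocampal microglia-like cells. In border macrophage-like cells it was at 764, 1082 and 1393 CPM and at 768, 645 and 878 CPM, a range that overlapped that of microglia in cortex and lay below it in hippocampus. Endothelial-like cells had 85.8, 79.3 and 97.9 CPM in cortex and 108, 128 and 121 CPM in hippocampus, 12.3-fold and 8.02-fold below microglia.

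*Ier3*, an early-response gene whose product affects cell survival under NF-kB, was at 137, 128 and 154 CPM in cortical microglia-like cells and at 127, 138 and 142 CPM in cortical endothelial-like cells. These ranges overlapped. In hippocampus *Ier3* was at 103, 115 and 101 CPM in microglia-like and at 187, 162 and 171 CPM in endothelial-like cells, the latter all higher, by 1.63-fold. *Gadd45b*, a stress gene that restrains JNK signalling, was at 10.1, 12.3 and 12.5 CPM in cortical and 10.3, 11 and 12.4 CPM in hippocampal microglia-like cells. Endothelial-like cells had 30.1, 38.3 and 41.4 CPM and 40.9, 44.5 and 49.3 CPM, 3.13-fold and 4.01-fold more. Mural-like cells had 66.0, 85.3 and 88.3 CPM in cortex and 76.3, 29 and 55 CPM in hippocampus. There was no overlap with microglia in either preparation, at 6.86-fold and 4.74-fold more. In hippocampus the mural-like libraries overlapped the endothelial-like ones. The hippocampal mural-like cluster led by *Vtn* and *Kcnj8* had 66.2 CPM and the one led by smooth muscle genes 32.8 CPM.

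The cytokines were rare and largely myeloid. *Tnf*, which activates NF-kB through its receptors, was at 17.6, 17.4 and 12.2 CPM in cortical and 20.6, 17.0 and 21.8 CPM in hippocampal microglia-like cells, where 4.84% of cortical cells held a UMI. Endothelial-like cells held 7 and 16 *Tnf* UMIs in all, and 0.207% of cortical endothelial-like cells held one. Mural-like cells held 0 UMIs of *Tnf* and of *Il1b* in all 6 libraries, so that with a floor of 3 UMIs for the class *Tnf* was at least 16.1-fold higher in cortical microglia-like cells. *Il1b*, which encodes IL-1 beta, was at 4.03, 1.25 and 6.29 CPM in cortical and 1.65, 1.72 and 5.97 CPM in hippocampal microglia-like cells. It was found in 0.552% of the cortical cells, and its technical replicates spread widely. In border macrophage-like cells *Il1b* was at 63.2, 15.2 and 0 CPM in cortex, from 2 cells, and at 53.7, 21.3 and 249 CPM in hippocampus, from 18 cells. The pooled ratio to microglia was 6.24-fold in cortex, where the libraries overlapped, and 31.6-fold in hippocampus, where every macrophage library was higher. The third hippocampal library, with 249 CPM, was also the one in which the summed neutrophil markers of this class were at 3177 CPM, against 35.8 and 45.8 CPM in the other hippocampal libraries (1 of 6 markers at 0) and 15.8 to 36.6 CPM in the cortical ones (4 of 6 at 0). Without that library the hippocampal ratio was 21.3-fold. A monocyte-like class was named in cortex (58 cells) but not in hippocampus. Among the leading genes of the macrophage-like cells were the listed monocyte markers *Ccr2* in cortex and *Lyz2* in hippocampus. The part of neutrophil or monocyte RNA in these *Il1b* values was not tested.

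Counted by a rule of size, 2-fold from summed UMIs, 7 of 10 members were higher in microglia-like than in endothelial-like cells in cortex and 7 of 10 in hippocampus, where 22.9% and 21.2% of all genes were. *Nfkbia* and *Gadd45b* were the 2 lower in each, against 24.4% and 25.4% of all genes. Against astrocyte-like cells 9 of 10 members were higher in microglia in both preparations (24.8% and 24.9% of all genes) and 0 lower (30.7% and 27.8%). Against oligodendrocyte-like cells 9 and 10 were higher (20.8% and 32.3%) and 0 lower (31.2% and 23.4%). Against mural-like cells 9 and 7 were higher (21.7% and 18.8%), with *Gadd45b* the 1 lower in each (26.7% and 27.8%). Members with 0 UMIs in the other class entered these counts through microglia alone, with that class set to 3 UMIs. These were *Il1b* in cortical endothelial-like cells and *Tnf* and *Il1b* in mural-like cells of both preparations. In oligodendrocyte-like cells they were *Il1b* in both preparations and *Nfkbid* and *Tnf* in cortex.
Against border macrophage-like cells fewer members were higher in microglia than against the classes above. In cortex 0 members were higher in microglia (17.7% of all genes). There 2, *Nfkbiz* and *Il1b*, were lower (24.7%), which is near the share of all genes, and the libraries of *Il1b* overlapped. Without the first or the second replicates 1 was higher in microglia. In hippocampus 1, *Socs3*, was higher (13.3%) and 4, *Nfkbiz*, *Ier3*, *Gadd45b* and *Il1b*, were lower (22.9%). Without the third hippocampal library 3 were lower, *Gadd45b* being at -0.96 on the log2 scale. Without the second 5 were, *Nfkbid* being added at -1.06. Without the first 4 were, with *Tnf* at -1.13 in place of *Ier3* at -0.81. The median log2 ratio of microglia to macrophages over the 10 members was -0.14 in cortex and -0.87 in hippocampus, beside 0.07 and 0.02 over all genes.

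Free RNA and mixed droplets can carry microglial transcripts into other barcodes, and the size of this was not tested. For description, each member's percentage of its microglial level is set beside those of the 10 microglia markers. Their median level was 1.27% of the microglial level in cortical and 2.62% in hippocampal endothelial-like cells, 1.96% and 3.54% in mural-like cells, and 2.45% and 6.97% in astrocyte-like cells. In endothelial-like cells 9 of 10 members in cortex and 10 in hippocampus stood at a larger percentage of their microglial level than every marker did, and in mural-like cells 7 did in each preparation. In astrocyte-like cells 3 members did in each preparation. There *Zfp36* was at 2.56% and 7.98% of its microglial level and *Socs3* at 2.45% and 8.10%. Of the markers *Sall1* was at 12.1% and 11.9% and the other 9 were at 2.28% to 2.67% in cortex and 6.71% to 7.62% in hippocampus. *Nfkbia* at 47.3% and 42.2% and *Gadd45b* at 52.3% and 84.6% in astrocyte-like cells were above all markers. The hippocampal count for endothelial-like cells includes their cluster 10, which carried 9668 CPM of the summed microglia markers. *Il1b* was at 15.2 CPM in that cluster and at 0 CPM in clusters 2 and 6 of the class, beside 3.04 CPM in hippocampal microglia-like cells. The source of the *Il1b* RNA in cluster 10 was not tested. *Tnf* was at 10.5 CPM in cluster 10 against 0.58 and 0.22 CPM.

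The second comparison set the hippocampal against the cortical preparation within each class. In microglia-like cells 5 members, *Nfkbia*, *Nfkbid*, *Tnfaip3*, *Zfp36* and *Ier3*, were lower in every hippocampal library than in every cortical one, and the other 5 overlapped. For 46.3% of all genes the libraries did not overlap either, and the libraries are technical replicates of 1 suspension per preparation. No member, 0 of 10, was past 2-fold in either direction, against 6.57% of genes higher and 3.53% lower. *Nfkbia* differed most, with a log2 ratio of hippocampus over cortex of -0.68 (95% counting interval -0.72 to -0.64), followed by *Nfkbid* at -0.41, *Ier3* at -0.39, *Tnfaip3* at -0.25 and *Zfp36* at -0.18. *Nfkbiz* at -0.08, *Gadd45b* at -0.06 and *Il1b* at -0.33 had intervals that reached or included 0, and *Socs3* at 0.17 and *Tnf* at 0.32 were on the other side with overlapping libraries. The median over the 10 members was -0.21, beside 0.12 over all genes.

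**Figure D2:**
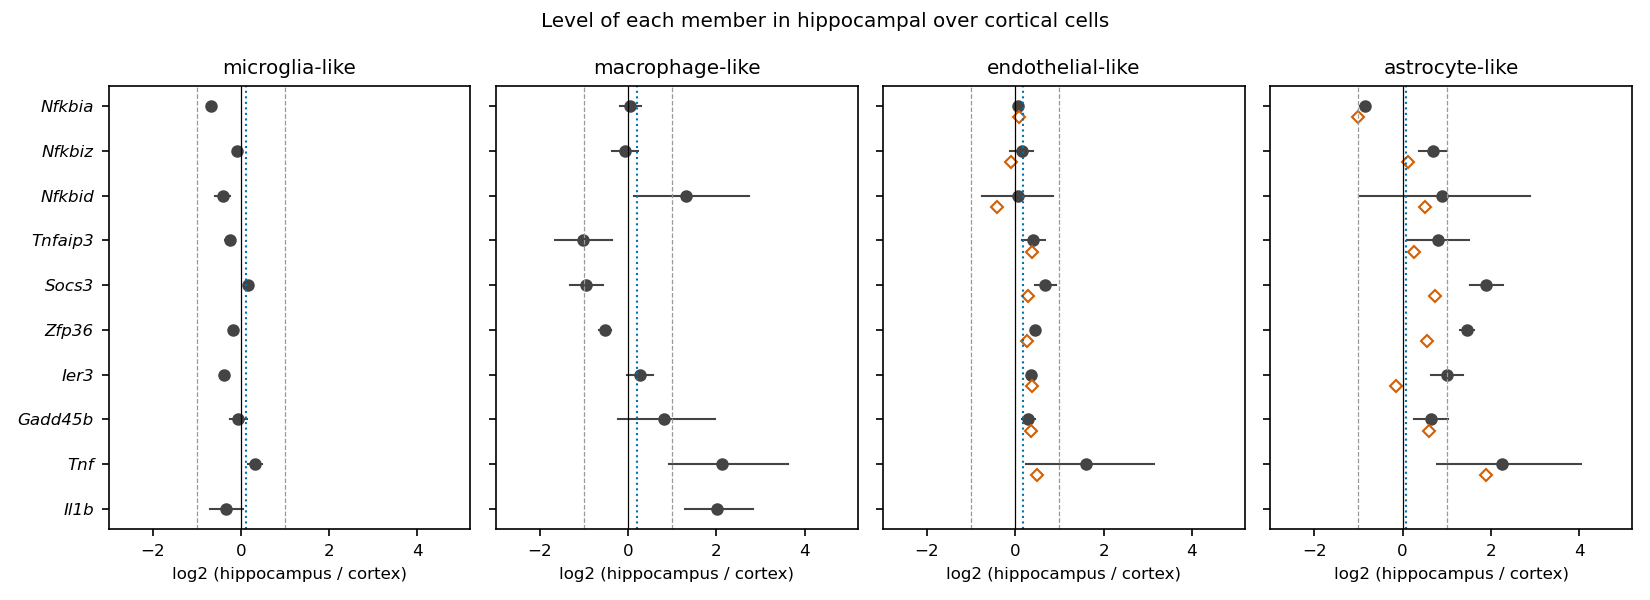
Log2 ratio of CPM, hippocampus over cortex (horizontal axis), of each gene in microglia-like, border macrophage-like, endothelial-like and astrocyte-like cells. Black points with bars give the value and its 95% counting interval, open diamonds the value without hippocampal cluster 16 (astrocyte-like) or 10 (endothelial-like), the dotted line the median of all genes and dashed lines 2-fold. In microglia-like cells every value lies within 2-fold, from -0.68 for *Nfkbia* to 0.32 for *Tnf*, and *Il1b* in endothelial-like cells, with 0 cortical UMIs, is not drawn.

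In border macrophage-like cells 3 of 10 members were past 2-fold higher in hippocampus (14.2% of all genes) and 1 lower (3.50%). *Tnf* was at 10.5, 9.14 and 5.10 CPM in cortex and 25.9, 31.1 and 57.2 CPM in hippocampus, with no overlap, as the libraries of 21.6% of genes did not overlap. Its log2 ratio of 2.13 (0.92 to 3.63) rests on 6 and 57 UMIs. *Nfkbid* differed by 1.32 on 7 and 38 UMIs and *Il1b* by 2.01 on 17 and 149 UMIs, the latter with overlapping libraries. Without the third replicate of both preparations these fell to 0.61 and 0.13, and with the members among the variable genes, which gave other macrophage-like clusters, to -0.34 and -1.24, whereas *Tnf* stayed between 1.57 and 2.59 in all alternatives. *Tnfaip3* was lower at -1.02, with overlapping libraries. Without the third replicates 1 member was past 2-fold higher, and without the second replicates 0 were lower. Markers of other blood cells differed between the preparations in this class. The summed T and NK cell markers were at 158, 27.4 and 76.6 CPM in cortex (5 of 7 at 0) and 621, 1622 and 627 CPM in hippocampus (0 at 0), and the neutrophil markers stood apart in the third hippocampal library as given above. Erythroid markers were at 18414, 12745 and 281 CPM in cortex (0 of 5 at 0) and 9.95, 13.1 and 0 CPM in hippocampus (2 at 0). Their part in the differences of *Tnf*, *Nfkbid*, *Il1b* and *Tnfaip3*, and that of monocyte RNA, was not tested.

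In endothelial-like cells *Socs3*, *Zfp36*, *Ier3* and *Tnf* were higher in every hippocampal library than in every cortical one, as the libraries of 50.6% of genes did not overlap. Their log2 ratios were 0.68 (0.45 to 0.92), 0.44 (0.35 to 0.53), 0.36 (0.28 to 0.43) and 1.61 (0.25 to 3.13), beside a median of 0.17 over all genes. Hippocampal endothelial-like cluster 10, with 274 cells, carried 9668 CPM of the summed microglia markers, where the other 2 hippocampal endothelial-like clusters carried 384 and 481 CPM. Without it the values were 0.28 for *Socs3*, 0.25 for *Zfp36*, 0.38 for *Ier3* and 0.50 for *Tnf*. The mix of clusters in this class also differed between the preparations. Hippocampal cluster 6, led by *Gkn3* and *Sema3g*, had *Zfp36* at 141 and *Gadd45b* at 83.6 CPM. *Zfp36* was at 87.6 CPM in the largest cortical cluster and 88.2 CPM in the largest hippocampal one. There *Ier3* was at 140 and 204 CPM, *Socs3* at 12.3 and 15.4 CPM and *Tnf* at 0.31 and 0.58 CPM. The part of the mix was not tested. *Nfkbia*, the member with the most UMIs in this class, differed by 0.06 (0.03 to 0.10) with overlapping libraries. With cortical cluster 10 counted as endothelial-like the log2 ratios were 0.72 for *Socs3*, 0.44 for *Zfp36*, 0.46 for *Ier3* and 1.77 for *Tnf*. *Gadd45b* moved from 0.30 to 0.12. Past 2-fold 2 of 10 members, *Tnf* and *Il1b*, were higher (10.6% of all genes) and 0 lower (3.59%). *Tnf* rests on 7 cortical and 16 hippocampal UMIs and *Il1b* on 0 and 13. *Il1b* thus passed the limit of 10 UMIs through hippocampus alone, and its ratio was set by the floor of 3 UMIs. Without hippocampal cluster 10, 0 of 9 members with enough UMIs were past 2-fold. Without the first or the third replicates 1 member was past 2-fold higher.

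In astrocyte-like cells 4 of 9 members with enough UMIs, *Tnf*, *Socs3*, *Zfp36* and *Ier3*, were past 2-fold higher in hippocampus (10.3% of all genes) and 0 lower (6.17%). *Zfp36* was at 25.3, 24.4 and 33.3 CPM in cortex and 78.0, 83.6 and 66.1 CPM in hippocampus, a log2 ratio of 1.47. *Socs3* was at 3.83, 3.88 and 6.59 CPM and at 16.2, 22.6 and 13.7 CPM, a log2 ratio of 1.90. Neither overlapped between the preparations, as 51.9% of genes did not. Hippocampal astrocyte-like cluster 16, with 185 cells, carried 17520 CPM of microglia markers, where the other astrocyte-like clusters of both preparations carried 734 to 5535 CPM. Without it *Zfp36* was at 0.56, *Socs3* at 0.75 and *Ier3* at -0.14, and 1 member, *Tnf* at 1.88, stayed past 2-fold higher. With all clusters *Tnf* rests on 5 cortical and 18 hippocampal UMIs. Hippocampal cluster 7, which stayed in, carried 5535 CPM of microglia markers, with *Zfp36* at 163 and *Socs3* at 31.3 CPM. In hippocampal cluster 3, with 941 CPM of markers, they were at 26.7 and 5.26 CPM. The part of microglial RNA in these values was not tested. Without the third replicates of both preparations 7 members were past 2-fold higher, with cluster 16 left in. *Nfkbia* moved the other way, at 131, 130 and 148 CPM in cortex and 77.6, 78.1 and 71.1 CPM in hippocampus. Its log2 ratio was -0.85 (-0.95 to -0.74) with all clusters and -1.0 without cluster 16, lower in all hippocampal libraries.

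In mural-like cells 0 of 7 members with enough UMIs were past 2-fold (9.31% of all genes higher, 5.51% lower). Without the first replicates 1 was lower and without the third 1 was higher. *Ier3* was at 58.1, 55.9 and 79.8 CPM in cortex and 112, 91.0 and 115 CPM in hippocampus, all higher, at 0.70, where 37.4% of genes did not overlap. *Zfp36* was at 264, 193 and 201 CPM and at 190, 173 and 113 CPM, all lower, at -0.46. The mix of clusters differed between the preparations. In the clusters led by smooth muscle genes *Ier3* was at 64.7 CPM in cortex and 101 CPM in hippocampus and *Zfp36* at 219 and 187 CPM. In the hippocampal cluster led by *Vtn* and *Kcnj8* they were at 108 and 142 CPM. *Gadd45b* was at 80.0 CPM in cortex and 32.8 CPM in hippocampus in the smooth muscle clusters, and at 66.2 CPM in the *Vtn* cluster. In oligodendrocyte-like cells, with 75 cells in cortex, the libraries of 43.9% of genes did not overlap. There 1 of 7 members, *Gadd45b*, was past 2-fold higher (5.56%) and 2, *Tnfaip3* and *Socs3*, were lower (20.1%). *Gadd45b* rests on 1 cortical and 94 hippocampal UMIs (-0.07 to 7.76) and *Tnfaip3* on 2 and 8 (-4.44 to 1.16), so both intervals include 0. *Socs3* rests on 12 and 80 UMIs (-2.26 to -0.37). Leaving out the second replicates gave 2 higher and 1 lower, and leaving out the third gave 1 lower.

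The third comparison asked whether members were found together in single microglia-like cells. Each cell was thinned to 1000 UMIs, which left 6083 cortical and 5875 hippocampal cells. A thinned cell held on average 1.05 of the 10 members in cortex and 1.00 in hippocampus, and 33.4% and 34.5% of cells held none. An odds ratio over 1 means that a gene was found more often in cells with the other gene than in cells without it. Pairs were described where at least 10 cells with both genes would be expected from their shares, a limit chosen after the values were seen. All 21 such pairs in cortex had an odds ratio over 1 in each of the 3 libraries, with a median of 2.53 and a range of 1.52 to 6.31. In hippocampus all 19 pairs were over 1 from the summed cells and 16 in each library, with a median of 2.17 and a range of 1.24 to 3.11. Cells of 1 library share their source and depth, so these are descriptions.

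*Nfkbiz* and *Ier3* had the highest odds ratio in cortex, 6.31, with 6.65, 7.76 and 5.13 in the libraries. *Ier3* was found in 32.1% of cells with *Nfkbiz* and in 6.99% of cells without, and 89 cells held both where 22.5 would be expected. In hippocampus the same pair had 2.51, with 38 cells where 17.7 would be expected. The ranges over libraries (5.13 to 7.76, and 1.96 to 3.14) did not overlap. The pair was picked as the highest in cortex, which by itself favours a lower value in hippocampus. How many other pairs had ranges that did not overlap was not counted. *Socs3* and *Ier3* were the highest pair in hippocampus at 3.11 (2.66 to 3.43), with 123 cells where 56.0 would be expected, and had 2.53 (2.30 to 2.79) in cortex. The inhibitor *Nfkbia* and the cytokine *Tnf* had 2.55 and 2.46. *Nfkbia* and *Zfp36*, each found in many cells, had 1.80 and 1.42, among the lower values. *Zfp36* and *Gadd45b* had 3.95 in cortex and 1.24 in hippocampus, where 1 of 3 libraries was under 1. *Il1b* was too rare for any pair to be described.

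**Figure D3:**
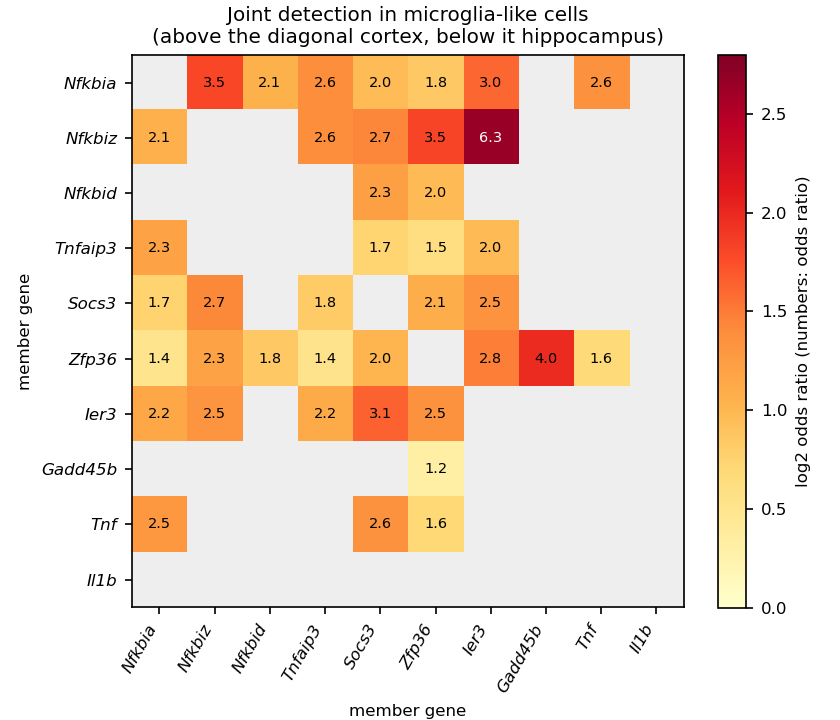
Odds ratio of joint detection for each pair of genes in microglia-like cells thinned to 1000 UMIs, cortex above and hippocampus below the diagonal, with grey cells for pairs expected in fewer than 10 cells. The highest cortical value is 6.31 for *Nfkbiz* and *Ier3* and the highest hippocampal value 3.11 for *Socs3* and *Ier3*.

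The same cells were counted by the number of members they held. In cortex 8.55% of thinned cells (95% Clopper-Pearson interval 7.86 to 9.28, 520 cells) held 3 or more, with 8.33%, 8.39% and 8.93% in the libraries. In hippocampus 7.32% (6.67 to 8.02, 430 cells) did, with 7.30%, 6.80% and 7.90%. Were the members independent with the same shares, 4.90% and 4.11% would be expected, so that the observed shares were 1.74 and 1.78 times larger. For 2 or more members the shares were 25.3% and 24.5% against 26.5% and 24.1%, or 0.954 and 1.02 times the independent ones. For 4 or more members they were 3.07% and 1.86% against 0.485% and 0.372%. Cells with no member were also more frequent than under independence, at 33.4% against 27.2% in cortex and 34.5% against 29% in hippocampus.
The size of this excess moved with the depth. At 3000 UMIs per cell the share with 3 or more was 26.6% and 26.4%, 0.958 and 1.04 times the expected one, and without thinning 42.9% and 49.8%, 0.884 and 0.896 times. The variance of the number of members per cell, which does not depend on where the limit lies, was 1.53 and 1.39 times that under independence at 1000 UMIs and 1.72 and 1.56 times at 3000. The median pair odds ratio was 2.38 and 1.87 at 3000 UMIs.

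**Figure D4:**
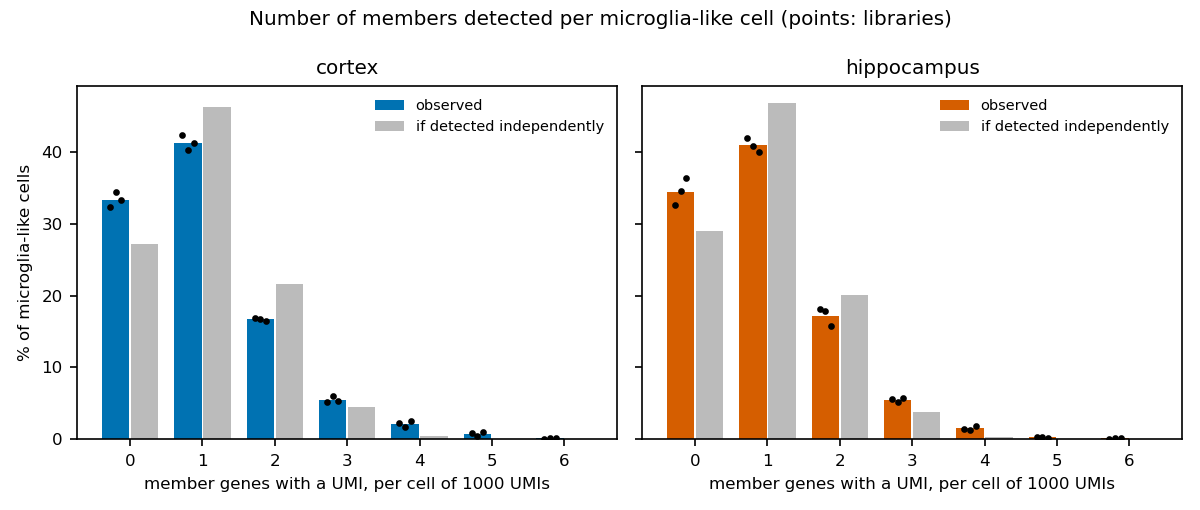
Share of microglia-like cells, thinned to 1000 UMIs, by the number of members detected (horizontal axis). Coloured bars give the observed percentage of cells (vertical axis), points the 3 libraries, and grey bars the percentage if members were independent. Cells with 0 members and cells with 3 or more are above the grey bars in both preparations, and cells with 1 or 2 are below.

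In endothelial-like cells 1.36% and 2.10% held 3 or more members, 1.27 and 1.37 times the independent share. The hippocampal value includes endothelial-like cluster 10, which carried 9668 CPM of the summed microglia markers, and was not computed without it. In the few border macrophage-like cells 11 of 93 (11.8%) and 22 of 213 (10.3%) held 3 or more. Of the microglia-like cells with 3 or more members 2.88% in cortex and 1.86% in hippocampus were called doublets, against 5.47% and 2.51% of cells with none. Their depth before thinning was higher, with a median of 6303 against 5415 UMIs in cortex and 7182 against 6682 in hippocampus, and their mitochondrial share was 4.21% against 4.05% and 3.57% against 2.91%. The part of depth in the pair values was not tested beyond the thinning.

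The members were uneven among microglia-like clusters although they were not used to build them. In cortex cluster 6, 498 cells or 8.09% of the class with 162 to 168 cells in each library, had a summed level of the 10 members of 3166 CPM against 1615 to 1877 CPM in the other 4 clusters. Its summed microglia markers were at 25875 CPM, where the others had 31666 to 34920 CPM. In hippocampus cluster 1, 2429 cells or 41.2%, had 1905 CPM against 1355 and 1483 CPM. Without cortical cluster 6 the share of cells with 3 or more members was 7.65% against 8.55% with it, and the median pair odds ratio was 2.21 against 2.53.

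Other genes of the pathway, taken as lists of 76 genes in all, were set against the members in the same thinned cells. The NF-kB subunits themselves, *Nfkb1*, *Nfkb2*, *Rel*, *Rela* and *Relb*, had a median odds ratio with the members of 1.07 in cortex and 1.10 in hippocampus. The kinase complex and its activators had 1.03 in cortex and 1.01 in hippocampus, the other inhibitors 1.02 in cortex and 0.99 in hippocampus, and the IL-6 family and STAT3 genes 0.99 in cortex and 0.98 in hippocampus. The TNF and IL-1 receptors and antagonists had 0.99 in cortex and 0.94 in hippocampus over 2 genes found in enough cells, and the other cytokines and IL-1 processing genes 0.92 in cortex and 1.03 in hippocampus. The medians of these 6 lists lay between 0.92 and 1.10. The relatives of members, 6 of 10 found in enough cells, had 1.26 in cortex and 1.43 in hippocampus, with single genes from 0.84 to 3.18 and from 1.23 to 2.33. The chemokines had 2.37 in cortex and 1.88 in hippocampus and the immediate early genes, transcription factors and phosphatases induced within minutes of many stimuli, 2.34 in cortex and 1.89 in hippocampus. Heat shock genes had 1.01 in cortex and 1.23 in hippocampus and the microglia markers 0.79 in cortex and 0.82 in hippocampus.

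**Figure D5:**
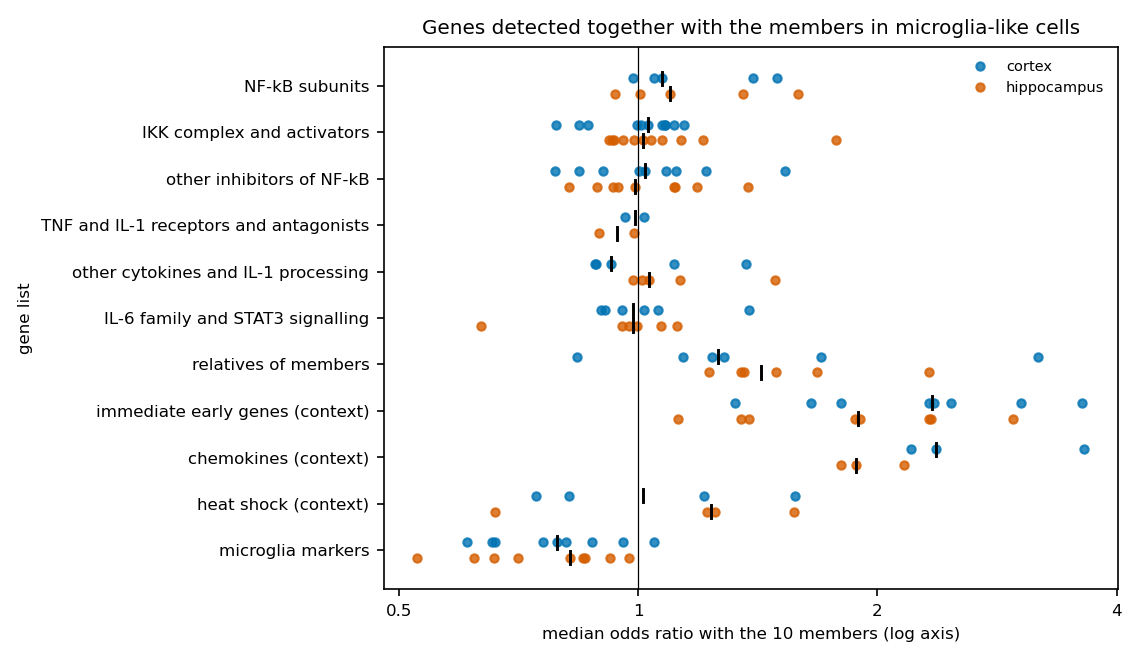
Median odds ratio of joint detection with the 10 members (horizontal axis, log scale) for each gene of the pathway and context lists in thinned microglia-like cells, cortex and hippocampus. Each point is a gene found in 1% to 99% of cells and each bar the median of its list, with the medians of immediate early genes and chemokines to the right of 1 and those of microglia markers to the left.

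*Egr1*, an immediate early transcription factor, was found in 14.8% of cortical cells with no member and 72.7% of those with 3 or more, and in 20.9% and 72.8% of hippocampal ones. *Fos* was found in 21.6% against 74.0% and 28.4% against 72.8%, and *Atf3* in 2.66% against 27.3% and 2.51% against 20.7%. The chemokine *Ccl4* was found in 5.96% against 20.4% and in 5.62% against 26.1%. The microglia marker *P2ry12*, found in most cells, was somewhat less frequent in those with 3 or more members, at 94.9% against 90.6% and 93.7% against 89.8%. *Nfkb1* differed little, at 13.3% against 13.8% and 15.1% against 14.9%. Over the 2588 other genes found in at least 5% of these cells, the mean correlation with the number of members per cell was highest for *Egr1* at 0.330, *Ier2* at 0.278, *Fos* at 0.275, *Junb* at 0.255, *Atf3* at 0.229, *Btg2* at 0.216 and *Dusp1* at 0.210, beside a median of -0.007 over all of them. These are correlations across cells of the 6 libraries at a depth of 1000 UMIs each.

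Between the preparations the pathway lists differed little in microglia-like cells. Past 2-fold were *Il1r1*, *Osmr* and *Hspa1b* among the genes with at least 10 UMIs in both preparations together, with *Il1r1* at 1.25 on 14 and 39 UMIs and *Osmr* at -1.23 on 10 and 5 UMIs. The 5 NF-kB subunits had a median log2 ratio of 0.10 and the 8 immediate early genes of 0.11, beside 0.12 over all genes. *Rel* was at 85.0 and 90.9 CPM, *Nfkb1* at 134 and 154 CPM, and *Egr1* at 614 and 715 CPM. The 4 heat shock genes had a median of -0.60, with *Hspa1b* at -1.10.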

How the data were processed

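Single cells of 6 libraries were captured with 10x Genomics chemistry. The authors deposited raw UMI counts per gene and barcode, made with Cell Ranger on mm10. The submitters' processing notes name version 5.0.1, whereas the file headers name 3.0.1 for cortex and 3.1.0 for hippocampus, with 31053 and 27998 genes. No normalization preceded deposit. From these counts, cells were filtered as in the study's methods (250 to 6000 genes, mitochondrial share below 25%), and libraries were integrated per preparation by canonical correlation analysis and clustered at a resolution of 0.5 on 30 components (Seurat 5.3.0, R 4.3.3). The 10 members and their pathway genes were left out of the 2000 variable genes. Doublets were called with Scrublet (in scanpy 1.11.5) at 0.8% per 1000 barcodes and kept. Clusters needed at least 3 markers in 20% of cells at 2-fold; how mural and mixed clusters were treated was settled after the first names were seen. Levels, ratios and shares were computed in Python 3.11.15 with scipy 1.17.1 and numpy 2.4.6 with exact Poisson and Clopper-Pearson intervals at 95%, which cover counting error only, and the spread is that of 3 technical replicates. Ratios needed at least 10 UMIs, and a class at 0 was set to 3 UMIs. CPM was taken over the shared identifiers. Scripts were tested on simulated data. The members, lists and alternatives were chosen with earlier results of these data known. All members are named; further genes are those of the lists and those most correlated with the members.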

Additional observations from a re-analysis of the deposited data

Results flagged for a closer look

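For some members every library moved one way between the preparations in 1 class and the opposite way in another. These differences were not tested, and the libraries are technical replicates of 1 suspension each. Within a class, the libraries of 21.6% (macrophage-like) to 51.9% (astrocyte-like) of all genes did not overlap between the preparations. The share of all genes with opposite moves was not computed, so the members are not set apart from other genes by it. The log2 ratio of hippocampus over cortex of *Nfkbia* was -0.68 in microglia-like and -0.85 in astrocyte-like cells but 0.28 in oligodendrocyte-like cells, where the counting interval (-0.15 to 0.74) includes 0. For *Nfkbid* it was -0.41 in microglia-like and 1.32 in border macrophage-like cells. For *Zfp36* it was -0.18 in microglia-like and -0.46 in mural-like cells but 0.44 in endothelial-like and 1.47 in astrocyte-like cells. The last 2 were lower without the cluster of each class that carried the most microglial marker RNA. For *Ier3* it was -0.39 in microglia-like cells but 0.36 in endothelial-like and 0.70 in mural-like cells.

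The ratio of microglia-like to border macrophage-like cells also had opposite signs in the preparations for 2 members. The share of all genes with such opposite signs was not computed. For *Nfkbid* its log2 was 0.90 (-0.15 to 2.22) in cortex and -0.83 (-1.31 to -0.32) in hippocampus, and for *Tnf* 0.90 (-0.23 to 2.36) and -0.90 (-1.29 to -0.49), so that both cortical intervals include 0. The cortical macrophage-like cells held 7 and 6 UMIs of these genes.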

How the results depend on the processing

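Of 524 recomputed summary values 459 kept their size and 65 moved. These are counts, levels, shares and odds ratios, for which no change of direction was scored. Of 1803 log2 ratios, mostly of single genes, 1713 were kept, 86 moved and 4 reversed. A reversal was scored only where the main ratio was past 2-fold, so smaller ratios that changed sign are among those kept or moved. The cause of these shifts was not tested. Depth limits *Il1b*, *Tnf* and *Nfkbid* outside microglia, and the small cortical macrophage-like and oligodendrocyte-like classes. With each cell weighing the same, 10 ratios to a class at 0 gave no value. No paired analysis was possible because replicate numbers name technical libraries of 1 pooled suspension each, the preparations do not share mice, and no result comes from a test.

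The 4 reversed log2 ratios of hippocampus over cortex were *Nfkbid* (-0.34) and *Il1b* (-1.24) in macrophage-like cells with the members among the variable genes, *Ier3* (-0.14) in astrocyte-like cells without hippocampal cluster 16, an alternative chosen after seeing the data, and *Socs3* in oligodendrocyte-like cells, which ranged from -2.34 to 0.88 on leaving out replicates, the latter without replicate 3. Scaling by TMM or by the median of ratios moved the median log2 ratio of all genes in microglia-like cells from 0.12 to 0.03 and 0.01, and *Nfkbia* to -0.78 under the latter. No member of microglia-like cells changed direction under the scalings.

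For members past 2-fold between the preparations, macrophage-like cells gave 1 higher and 2 lower with the members among the variable genes or a resolution of 1.0, 0 lower with each cell weighing the same, and 2 lower with TMM, the median of ratios or a scaling without mitochondrial, ribosomal and haemoglobin genes. Leaving out replicates gave 1 to 4 higher and 0 to 1 lower. Endothelial-like cells gave 1 higher without called doublets, 1 to 2 on leaving out replicates and 0 without hippocampal cluster 10. Astrocyte-like cells gave 1 higher and 1 lower with a mitochondrial limit of 10%, 2 higher with the members among the variable genes, 1 higher with a resolution of 1.0, 3 to 7 higher on leaving out replicates, and 1 higher and 1 lower without cluster 16. Mural-like cells gave 0 to 1 higher and 0 to 1 lower on leaving out replicates, and 1 higher with no filter on low counts. Oligodendrocyte-like cells gave 1 lower without called doublets or with the members among the variable genes, 2 higher with TMM or the median of ratios, 4 lower with no filter, and 1 to 2 in each direction on leaving out replicates.

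For members past 2-fold higher in microglia-like than in macrophage-like cells, cortex gave 1 without called doublets, 2 with a resolution of 1.0 or each cell weighing the same, and 0 to 1 on leaving out replicates, and hippocampus gave 2 with a resolution of 1.0.

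The summed level of the members moved in astrocyte-like cells from 192 CPM in cortex to 264 with a mitochondrial limit of 10% and 149 without called doublets, and from 210 CPM in hippocampus to 177 without called doublets, 146 with the members among the variable genes and 151 with a resolution of 1.0. In hippocampal mural-like cells it moved from 483 CPM to 642 with the members among the variable genes and 556 with a resolution of 1.0, and in hippocampal oligodendrocyte-like cells from 76.8 to 61.6 CPM without called doublets. With each cell weighing the same it was 1714 and 1549 CPM in cortical and hippocampal microglia-like cells, 1411 in cortical macrophage-like and 100.1 in cortical oligodendrocyte-like cells.

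The share of microglia-like cells with 3 or more members was 26.6% and 26.4% at 3000 UMIs and 42.9% and 49.8% without thinning. It was 25.3% and 24.5% for 2 or more members, 3.07% and 1.86% for 4 or more, and 7.65% in cortex without cluster 6. The median pair odds ratio in cortex was 2.32 with a mitochondrial limit of 10%, 2.77 without thinning, 2.21 without cluster 6 and 2.24 to 2.59 on leaving out replicates. In hippocampus it was 1.87 at 3000 UMIs and 2.46 over all 45 pairs. The sets without cluster 6, 10 or 16, the set with cortical cluster 10 added and all pairs were chosen after seeing the data.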

Other observations

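The cortical preparation held 58 monocyte-like cells, a class not named in hippocampus, and these had the highest *Il1b* of any class. *Il1b* was at 934, 605 and 1248 CPM in their 3 libraries and was found in 58.6% of the cells, where 0.552% of cortical microglia-like cells held it. *Zfp36* was at 1482, 1278 and 1401 CPM and *Nfkbiz* at 189, 244 and 266 CPM, each above every cortical microglia-like library.

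Fibroblast-like cells, 78 in cortex and 48 in hippocampus, had *Gadd45b* at 141, 262 and 88.7 CPM and at 350, 164 and 356 CPM, the highest of the classes in both preparations. *Ier3* was at 247, 279 and 183 CPM in cortical and at 518, 266 and 290 CPM in hippocampal fibroblast-like cells, above every microglia-like library, while *Il1b* had 0 UMIs.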
